A study of Mus musculus with 7 samples.

Results

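The genes described here are those that were scarce in mouse pancreatic tumors grown from cells with a scrambled guide RNA and abundant in tumors whose cells carried a guide that targets *Krt19*. A gene was taken when its normalized read count was 20 or more in each of the 3 sgKRT19 libraries, when the mean of the 4 sgScramble libraries was under 15% of the sgKRT19 mean, and when sgScramble library 3 was at most 2 times the highest of the other sgScramble libraries. Of the 38026 rows of the table, 74 met these conditions. Leaving out *Cd3d*, *Cd8a*, *Gzma* and *Ido1*, which are not considered here, left 70 rows, or 0.184% of the table. The 70 rows are 69 genes, because *Apobec2* is listed under 2 identifiers with the same values. The third condition was meant to drop genes that follow the muscle content of sgScramble library 3. It did so in part only: 26 of the 69 genes have their known main site of expression in striated muscle or act in it, and 12 (17.4%) are in a list of skeletal muscle genes, against 57 (50.4%) of the 113 genes that the third condition alone removed. The set is therefore called by its rule, the genes gained in sgKRT19 tumors, and not as a set apart from muscle. The rule used the values of both groups, so the direction and size of each difference below describe how the genes were chosen and carry no test.

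RNA from 7 subcutaneous tumors was sequenced. The cells were of the pancreatic ductal adenocarcinoma (PDA) line 1242, derived from a pancreatic tumor of an engineered mouse with a *Pdx1-Cre* allele, in which Cre acts in pancreatic lineages. All the cells had received Cas9 and a guide RNA by lentivirus and puromycin selection, with a scrambled guide in sgScramble (libraries 1 to 4, n = 4) and a guide against *Krt19* in sgKRT19 (libraries 5, 6 and 8, n = 3). The labels do not say which *Krt19* guide was used or whether the cells were a pool or 1 clone. The hosts were C57BL/6 mice with their own immune cells and no treatment, and tumors were taken 2 weeks after inoculation in the flank, where skeletal muscle lies beneath the skin.

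A value is a normalized read count, that is, the reads of a gene over the size factor of its library. Means are given ± SD of the group. Each library held 40781199 to 44972100 reads, and 3 reads were worth a value of 2.74 to 3.47, a floor that covers counting error only. *Krt19* itself had values of 25574, 21179, 27618 and 17841 in sgScramble 1 to 4 and of 1606, 1960 and 2470.0 in sgKRT19 5, 6 and 8. In 10 markers of epithelial cancer cells, 5 were higher and 1 was lower in sgKRT19, and in 11 fibroblast markers 1 was higher. Of all genes tested, 17.9% were higher and 16.0% lower. The epithelial markers summed to 142561 to 194191 in sgScramble and to 282104 to 288604 in sgKRT19, without overlap. The fibroblast markers summed to 105156 to 238933 and to 121294 to 139748. In whole tumors, more cells of a type and more RNA per cell cannot be told apart.

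The most abundant of the gained genes are proliferins. Proliferins are secreted hormones of the prolactin family that trophoblast giant cells of the mouse placenta make in pregnancy, and they are also known from growing mouse cell lines, in which they were named for their appearance on growth stimulation. Prolactin-family hormones arose by repeated duplication in rodents, and most of the genes lie side by side on chromosome 13. The other gained genes fall into epithelial genes of ion transport, barrier and microbial sensing, genes known to be induced by interferon, T cell and cytotoxic genes, genes of striated muscle, and a remainder. Interferons act through transcription factors that bind the interferon-stimulated response element (ISRE) or the gamma-activated site (GAS), and muscle genes are often bound by MEF2 factors. The division into 6 classes was made from general knowledge after the genes were known. The gene lists were likewise chosen with earlier results of these data known, so the shares called in them are descriptions and not tests. Where a list is given without its gained genes, it still holds any of the genes that were left out by name at the outset.

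Promoter sequence was not used by the rule. The proximal promoters of 2 proliferins are shown because these genes are near copies of each other also outside their transcripts, those of 2 interferon-inducible genes because they hold the ISRE letters, and that of *Ldb3*, a muscle Z-disc gene, because it holds the MEF2 letters. Each runs from 250 bases before to 50 after the start of a RefSeq transcript in GRCm38.p6 and is written 5′ to 3′ on the strand of the gene. Capitals mark a match to 1 of 3 motifs, GAAA and GAAA with any 2 bases between (ISRE), TTCNNNGAA (GAS) and CTA and TAG with any 4 bases between (MEF2). They were searched on both strands, and the GAS and MEF2 patterns read the same on either strand.
*Prl2c3*, chr13:12800030-12800329, minus strand: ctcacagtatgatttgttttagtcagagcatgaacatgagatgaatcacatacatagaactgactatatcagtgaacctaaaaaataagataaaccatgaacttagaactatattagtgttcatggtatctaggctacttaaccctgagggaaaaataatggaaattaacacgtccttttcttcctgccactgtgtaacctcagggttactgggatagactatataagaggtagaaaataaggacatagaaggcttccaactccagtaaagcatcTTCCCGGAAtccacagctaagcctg
*Prl2c5*, chr13:13182466-13182765, plus strand: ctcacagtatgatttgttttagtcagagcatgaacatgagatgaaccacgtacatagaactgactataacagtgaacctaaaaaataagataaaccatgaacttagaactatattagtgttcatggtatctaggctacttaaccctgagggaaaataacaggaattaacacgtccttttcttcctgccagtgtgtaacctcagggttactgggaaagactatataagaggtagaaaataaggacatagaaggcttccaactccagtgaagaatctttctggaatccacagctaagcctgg
*Ifi208*, chr1:173673415-173673714, plus strand: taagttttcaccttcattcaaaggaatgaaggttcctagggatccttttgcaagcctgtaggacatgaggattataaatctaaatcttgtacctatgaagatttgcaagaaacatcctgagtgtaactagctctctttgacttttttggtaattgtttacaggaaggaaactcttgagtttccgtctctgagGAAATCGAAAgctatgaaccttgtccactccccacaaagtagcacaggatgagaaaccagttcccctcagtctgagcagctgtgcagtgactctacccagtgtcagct
*Ifit1bl1*, chr19:34601919-34602218, minus strand: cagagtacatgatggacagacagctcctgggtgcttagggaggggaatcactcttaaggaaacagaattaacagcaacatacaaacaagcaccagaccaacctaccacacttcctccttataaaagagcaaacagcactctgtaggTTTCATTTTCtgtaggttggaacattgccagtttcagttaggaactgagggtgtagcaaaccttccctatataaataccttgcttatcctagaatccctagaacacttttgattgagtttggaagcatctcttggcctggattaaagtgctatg
*Ldb3*, chr14:34588558-34588857, minus strand: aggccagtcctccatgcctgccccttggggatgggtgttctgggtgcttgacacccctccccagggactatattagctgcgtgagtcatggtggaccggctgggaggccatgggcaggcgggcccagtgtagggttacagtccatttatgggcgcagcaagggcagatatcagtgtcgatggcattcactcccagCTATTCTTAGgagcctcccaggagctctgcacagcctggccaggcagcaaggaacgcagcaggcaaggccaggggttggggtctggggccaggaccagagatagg
The windows of *Prl2c3* and *Prl2c5* were alike in 287 of 301 aligned positions (95.3%). The GAS match of *Prl2c3* begins 26 bases past the transcript start, and the same stretch of *Prl2c5* does not hold those letters. The ISRE letters begin 58 bases before the start of *Ifi208* and, read on the other strand, 104 bases before the start of the *Ifit1bl1* transcript shown. The MEF2 letters of *Ldb3* begin 55 bases before the start of the transcript shown, and 20 bases past the start of another *Ldb3* transcript.

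Promoters were on hand for 48 of the 69 genes, in 57 windows. The ISRE pattern was in 3 of the 57 windows (5.26%), against 3.44% of the 32851 promoter windows of the table, and the 3 belong to *Ifi208* and *Ifit1bl1*, both in the interferon class. The GAS pattern was in 9 windows (15.8%) of 8 genes, against 8.30% of all windows, and no class held more than 3 of these genes. The MEF2 pattern was in 5 windows (8.77%), against 3.69% of all windows. Those 5 belong to *Dusp27* and *Ldb3* in the muscle class, to *Sult1d1* and to *Phf11d*. No window held more than 1 of the 3 motifs. A match describes letters and does not show that a factor binds there. The MEF2 pattern leaves its 4 middle bases open, so a match to it need not be a MEF2 site.

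All 70 rows passed the filter on low values and all 70 were called higher in sgKRT19, where 3820 of the 21322 genes tested (17.9%) were called higher and 3420 (16.0%) lower. Scaling by library size only gave 2187 higher and 5705 lower, since it shifted the median of all genes to −0.21 (log2), and differences smaller than that change sign under it. In all 70 every sgKRT19 value lay above every sgScramble value, against 4637 genes of the table (21.7%). The rule favors both counts without fixing them, so they carry no test. The fitted log2 differences of the 70 ran from 2.58 to 5.60, with a median of 3.33, where the median over all genes tested was 0.01. These fits used limma on log2(value + 1), which understates the difference of genes with low values. The members closest to the 15% threshold were *Ifitm6* (14.9%), *Fhl1* (14.8%) and *Gm15433* (14.5%). Just outside lay *Piwil4* (15.1%), *Dio1* (15.1%) and *A430093F15Rik* (15.7%). At the threshold of 20, the lowest sgKRT19 value was 20.8 for *Gm15433* and 22.1 for both *Gm15533* and *Gzmk*, and it was 19.95 for *Cdh15* and 19.7 for both *Crhr2* and *Rbfox1*, which stayed outside. At the limit on sgScramble 3, the ratio was 1.97 for *Sypl2*, 1.96 for *Sgca* and 1.93 for *Myom1*, and it was 2.00 for *Sh3bgr*, 2.05 for *Mylk2* and 2.06 for *Synpo2l*, all 6 of them muscle genes.

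**Figure D1:**
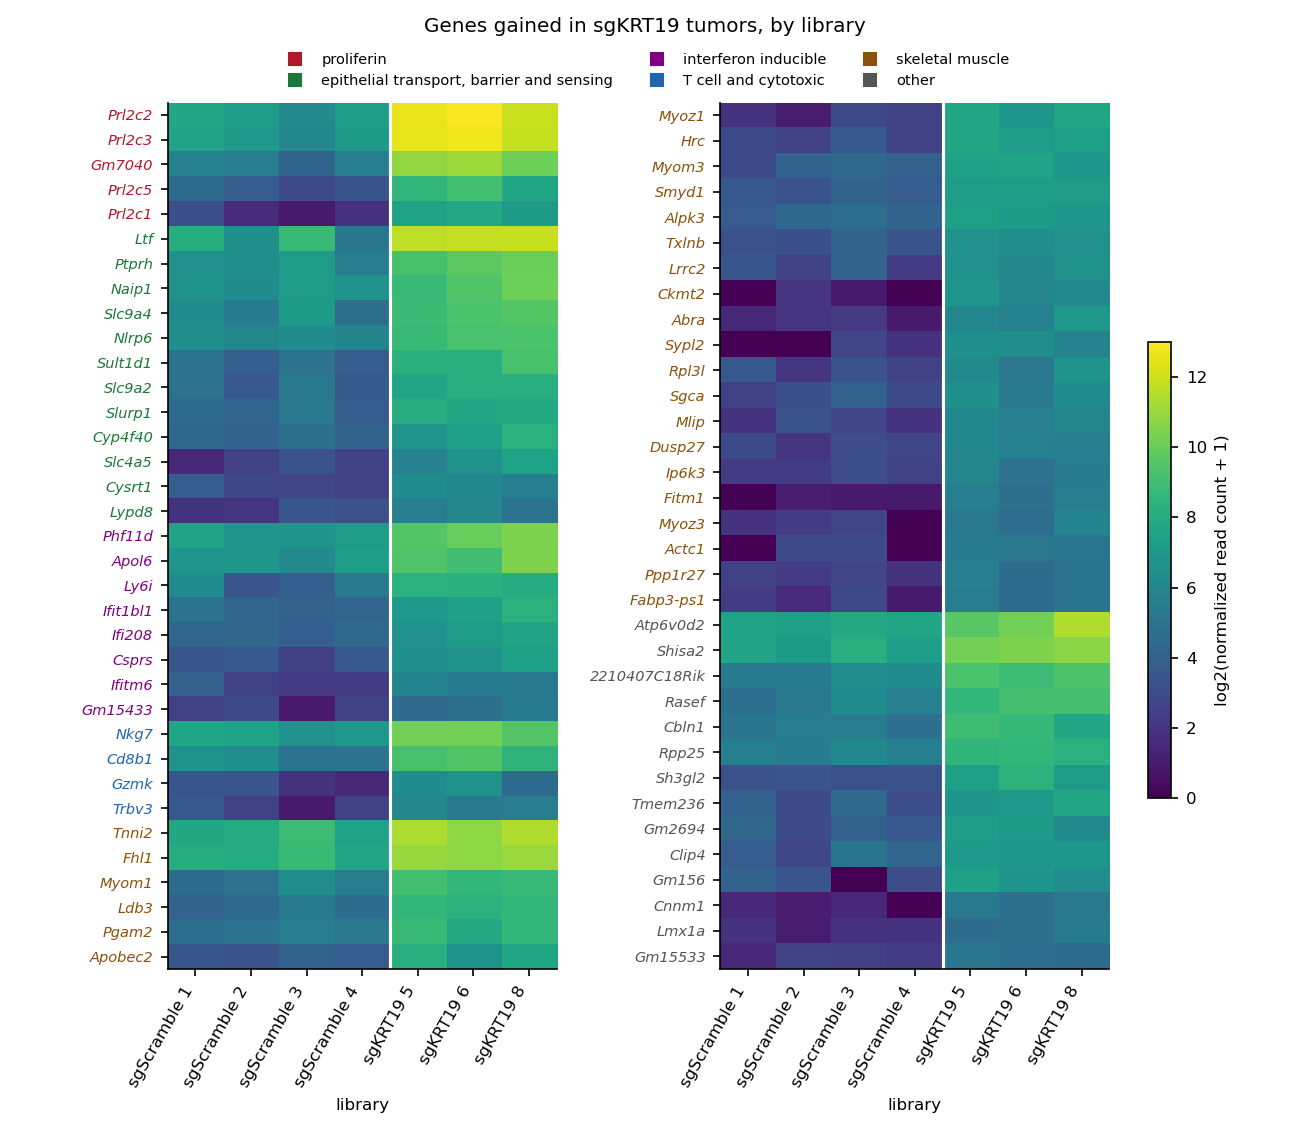
Normalized read counts of the 69 genes gained in sgKRT19 tumors, as log2(value + 1), with 1 column per library and 1 row per gene, grouped by class and ordered by sgKRT19 mean within a class. The white line parts the 4 sgScramble from the 3 sgKRT19 libraries; *Prl2c2*, *Prl2c3*, *Ltf* and *Tnni2* have the highest sgKRT19 means, and sgScramble 3 is the brightest control in 21 of the 26 muscle rows.

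Of the proliferins, *Prl2c2* (chr13:12996125-13005383) had values of 211, 145, 71.2 and 157 in sgScramble 1 to 4 and of 6392, 7695 and 4014 in sgKRT19 5, 6 and 8. Its sgKRT19 mean of 6034 ± 1867 (n = 3) stood 41.3-fold above its sgScramble mean of 146 ± 57.5 (n = 4). *Prl2c3* (chr13:12790816-12800079) had 189, 128, 66.7 and 135 against 5823, 6861 and 3677, a 42.02-fold difference of means. In both genes the groups lay far apart, with the lowest sgKRT19 library at 19.04 and 19.5 times the highest sgScramble library. Both genes ordered the libraries alike: sgKRT19 6 was highest and 8 lowest, and sgScramble 1 was highest and 3 lowest.

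The pseudogene *Gm7040* (chr13:13320941-13323370) had values of 52.9, 44.5, 17.4 and 45.4 in sgScramble and of 1895, 2206 and 1106 in sgKRT19. *Prl2c5* (chr13:13182715-13191923) had 23.2, 12.8, 6.39 and 9.27 against 381, 543 and 221. *Prl2c1* (chr13:27849342-27857788), which lies on the same chromosome but away from the other 4, had 7.43, 1.98, 0.913 and 2.78 against 177, 232 and 137. The means of these 3 were 43.3-fold, 29.5-fold and 55.5-fold higher in sgKRT19, and *Prl2c1* was at or below 3 reads in sgScramble 2, 3 and 4. All 5 proliferin rows were highest in sgKRT19 6 and lowest in 8, and highest in sgScramble 1. Summed over the 5 rows, proliferins made up 0.0288%, 0.0396% and 0.0205% of all normalized counts in sgKRT19 5, 6 and 8, and from 0.000407% to 0.00116% in sgScramble.

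These 5 rows are not independent measurements. The longest transcripts of *Prl2c2* and *Prl2c3* were identical at 99.5% of aligned positions, and of all 76-base words of *Prl2c2*, the length of a read, 60.2% also occur in *Prl2c3*. The ratio of *Prl2c2* to *Prl2c3* was between 1.07 and 1.16 in all 7 libraries, and that of *Gm7040* to *Prl2c3* between 0.260 and 0.346. *Gm7040* has 41.6% of its words in *Prl2c3*. *Prl2c1* and *Prl2c5* are more distinct, with 13.6% and 18.96% of their words found in any other gene, and their transcripts were identical at 89.7% of aligned positions. How reads with several matches were counted is not stated, so values of the first 3 rows may be shared among them. Per kilobase of exon, the sgKRT19 mean of normalized counts was 5535 for *Prl2c2*, 4010.0 for *Prl2c3* and 3918 for *Gm7040*, against 1625 for *Tnni2*, 1150.3 for *Nkg7* and 1023 for *Ltf*, the next genes of the set on that scale. On the same scale *Prl2c5* was at 324 and *Prl2c1* at 213.

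The other 9 prolactin-family genes of the table, among them *Prl* itself, all fell under the filter, and their highest value in any library was worth 3 reads. The prolactin receptor gene *Prlr* was at most 12.98 and was not tested. The gain was thus seen in the *Prl2c* subfamily and not in the rest of the family at this depth.

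**Figure D2:**
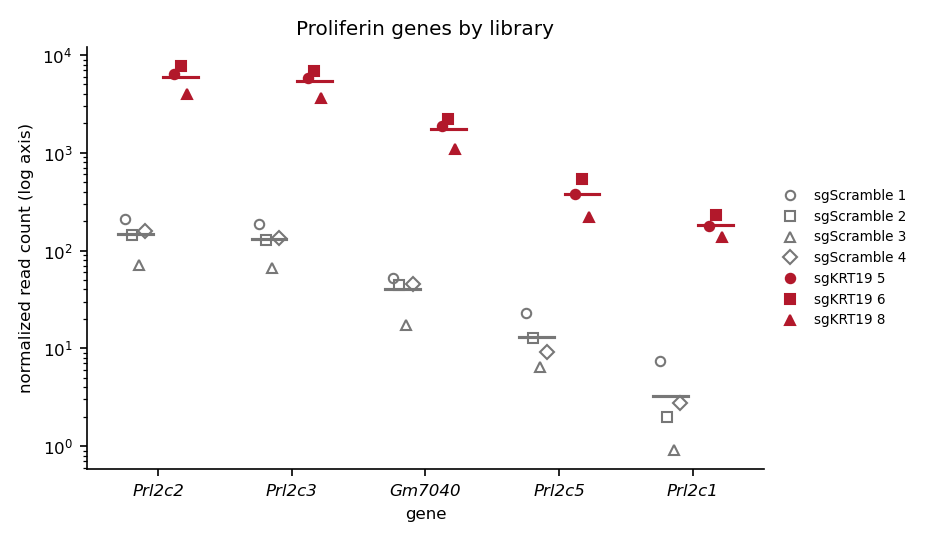
Normalized read counts of the 5 proliferin rows on a log axis, with 1 symbol per library (open grey for sgScramble, filled red for sgKRT19) and a bar at the mean of each group. In every row the sgKRT19 values lie above the sgScramble values, with library 6 highest and library 8 lowest, and *Prl2c2* and *Prl2c3* show nearly the same values.

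Among the 12 epithelial genes, *Ltf* had the highest values. It encodes lactoferrin, an iron-binding antimicrobial protein of mucosal secretions and of neutrophil granules. *Ltf* (chr9:111019271-111042767) had 276, 91.9, 448 and 33.4 in sgScramble and 3300.5, 3616 and 3673 in sgKRT19. The sgKRT19 values lay close together, whereas the sgScramble values spread from library 4 to library 3, and the means differed 16.6-fold. The neutrophil granule genes *Camp* and *Ngp* had sgKRT19 means of 2.63 and 3.08, and the neutrophil surface gene *Ly6g* had 3.66. Of the 16 other neutrophil genes tested, 10 were higher, with a median log2 difference of 1.09, but only 5 without sgScramble 2 or sgKRT19 6 and 6 without sgKRT19 5 or 8. Among them *S100a8* had 86.7 ± 24.8 in sgScramble and 242 ± 45.3 in sgKRT19. Of 14 other acute-phase and antimicrobial genes tested, 1 was higher (7.14%, against 17.9% of all genes tested) and 5 were lower, where 16.0% of all genes were. The one higher was *Cfb*, a complement factor, with a log2 difference of 0.86 ± 0.15 (SE), and those lower were *Lcn2*, *C3*, *Cxcl15*, *Chil3* and *Chil4*. The number higher was 2 without sgScramble 1, sgKRT19 6 or sgKRT19 8.

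Ion transporters formed a group. *Slc9a4* (chr1:40580081-40630725) and *Slc9a2* (chr1:40680574-40769273) are neighbors, 49.8 kb apart, and encode sodium-hydrogen exchangers known from the stomach and intestine. *Slc9a4* had 77.1, 39.5, 137 and 26.9 in sgScramble and 464, 628 and 769.8 in sgKRT19, an 8.85-fold difference of means. *Slc9a2* had 27.9, 10.9, 36.5 and 12.1 against 209, 296 and 289, a 12.1-fold difference. Both were highest in sgScramble 3 among the controls, and in neither did the groups overlap. The 6 other sodium-hydrogen exchanger genes of this family that were tested had a median log2 difference of 0.05. Part of the exons of *Slc9a4* (16.7%) overlaps an unnamed gene on the opposite strand, which was called higher too. *Slc4a5*, a sodium bicarbonate cotransporter named after its values were seen, had 1.86, 4.94, 9.13 and 4.64 against 53.2, 98.02 and 187.

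Of the receptors and enzymes of this class, *Ptprh*, a receptor-type tyrosine phosphatase of the microvilli of gut epithelium, had 92.9, 88.9, 141 and 43.6 in sgScramble and 594, 840.1 and 1073 in sgKRT19. *Naip1*, a cytoplasmic receptor for a bacterial secretion needle protein, had 101, 79.05, 142 and 102 against 442, 699 and 1128. *Nlrp6*, a receptor of the same superfamily known from intestinal epithelium, had 87.3, 62.2, 78.5 and 56.6 against 431, 613 and 634. Of these 3 *Naip1* spread most among sgKRT19 libraries, with a highest value 2.55 times its lowest, and *Nlrp6* least, at 1.47 times. Of the 5 other *Naip* genes in the table, 4 were called higher, and *Naip1* has 20.1% of its 76-base words in other genes, mostly *Naip3*. *Sult1d1*, a sulfotransferase named after its values were seen, had 28.8, 13.8, 30.1 and 12.98 against 309, 284 and 595.

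A pair of genes of this class encode small secreted or membrane-bound proteins of the Ly6 and uPAR type. *Slurp1*, secreted by keratinocytes and other epithelia, had 22.3, 17.8, 35.6 and 12.98 in sgScramble and 271, 216 and 246 in sgKRT19. *Lypd8*, which keeps flagellated bacteria off the colon epithelium, had 2.79, 2.96, 10.05 and 8.35 against 46.2, 63.01 and 29.4. The remaining genes of the class are *Cyp4f40*, a cytochrome P450, and *Cysrt1*, with sgKRT19 means of 198 ± 102 and 64.6 ± 15.3 and folds of 9.96 and 8.90. Parts of the exons of *Slurp1* (10.98%) and *Cysrt1* (11.95%) overlap genes on the opposite strand. Among the 12 genes 8 were highest in sgKRT19 8 and 8 were lowest in sgKRT19 5, and 10 were highest in sgScramble 3 among the controls.

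The class stands beside a wider change in gastric and intestinal genes that the rule did not take. With *Slc9a4* left out, 41 genes of that list were tested, 25 were called higher (61.0%) and 1 lower, against 17.9% and 16.0% of all genes tested, and the median log2 difference was 1.40. The gastric mucin gene *Muc5ac* had 623, 603, 1713 and 465 in sgScramble and 6074, 11205 and 9860.0 in sgKRT19. *Gkn2*, which encodes a gastrokine of gastric surface cells, had 1460.1, 381, 5936 and 116 against 9351, 14472 and 9243. In *Gkn2* and in *Muc5ac* sgScramble 3 was the highest control, as in 10 of the 12 gained genes. In both, that library exceeded the limit on sgScramble 3. *Muc5ac* met the other conditions of the rule, so that limit alone left it out and did not remove muscle genes only. *Muc6*, the mucin of gastric gland cells, went the other way, with 762, 1841, 2028 and 569 against 42.8, 89.02 and 40.96 and a log2 difference of -4.36 ± 0.45 (SE).

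Genes known to be induced by interferon, or relatives and copies of such genes, made up 8 of the 69. *Phf11d*, a plant-homeodomain finger gene, had 189, 109.7, 106 and 138 in sgScramble and 735, 1002 and 1375 in sgKRT19, a 7.64-fold difference of means. *Apol6*, an apolipoprotein L gene, had 109.6, 116, 69.4 and 148 against 694, 523 and 1417. *Ly6i*, a membrane-anchored Ly6 protein of myeloid and other cells, had 76.2, 9.88, 13.7 and 37.1 against 311, 302 and 259. In *Phf11d* and *Apol6* sgKRT19 8 was highest, whereas in *Ly6i* it was lowest, and *Ly6i* ranged widely among the controls. *Apol6* shares 1.42% of its exon bases with *Mb*, the myoglobin gene, on the opposite strand.

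The PYHIN-family gene *Ifi208*, whose promoter holds the ISRE letters shown above, had 17.6, 18.8, 13.7 and 21.3 in sgScramble and 94.8, 139 and 194 in sgKRT19. The other gene with those letters, *Ifit1bl1* of the interferon-induced tetratricopeptide family, had 29.7, 17.8, 15.5 and 17.6 against 129, 174 and 311. *Ifitm6*, of the interferon-induced transmembrane family, had 14.9, 4.94, 3.65 and 3.71 against 56.6, 42.01 and 37.8, with sgScramble 1 well above the other controls. The other members are *Csprs*, with means of 9.44 ± 3.32 and 122 ± 46.3, and the pseudogene *Gm15433*, with 4.28 ± 2.49 and 29.6 ± 10.3. Of the 76-base words of *Gm15433* 73.5% occur in other genes, so its reads may belong to these.

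Of the 8, 6 were highest in sgKRT19 8 and 5 lowest in sgKRT19 5. The interferon gamma response list as a whole, members left out, had its highest sum in the same library: 217132, 227469 and 294267 in sgKRT19 5, 6 and 8, against 52726 to 105004 in sgScramble. Of its 53 genes tested, 45 were called higher (84.9%), with a median log2 difference of 1.47. *Cxcl9*, a chemokine that draws activated T cells, had 1667 ± 496 against 7809 ± 587, and *Gbp2*, a guanylate-binding protein, 8763 ± 1795 against 27272 ± 4403. Among relatives of the gained genes, 3 of 3 other *Phf11* genes, 11 of 12 other *Ifi200* genes (*Aim2* was lower), 4 of 5 other *Ifit* genes and 5 of 7 other *Ly6* genes tested were called higher, where 17.9% of all genes were. These families were picked after the members were known.

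The T cell and cytotoxic class holds 4 genes, after those named at the outset were left aside. *Nkg7*, which acts in the release of cytotoxic granules, had 199, 179, 93.2 and 121 in sgScramble and 1219.6, 1195 and 739 in sgKRT19. *Cd8b1*, the beta chain of CD8 on cytotoxic T cells, had 101, 87.9, 30.1 and 29.7 against 598, 713 and 349. *Gzmk*, a granzyme of effector T cells, had 10.2, 9.88, 2.74 and 1.85 against 78.6, 98.02 and 22.1. *Trbv3*, a variable segment of the T cell receptor beta chain, had 11.1, 4.94, 0.913 and 4.64 against 64.7, 36.01 and 43.1. All 4 were highest in sgScramble 1 among the controls, and 3 of the 4 were lowest in sgKRT19 8, with *Gzmk* in that library at 2.16 times its highest control.

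The summed value of the other genes of the T cell list was also lowest in sgKRT19 8, with 24674, 23654 and 17274 in sgKRT19 5, 6 and 8 and 9650 to 10867 in sgScramble. The sum over the other cytotoxic effector genes differed in this, with 18006, 18479 and 23984, highest in sgKRT19 8. Of 36 other T cell genes tested 31 were called higher (86.1%) and 1 lower (*Tcf7*, a factor of naive and memory T cells), with a median log2 difference of 1.97. Of 19 other cytotoxic genes 15 were higher (78.9%) and 1 lower (*Serpinb9b*), with a median of 1.75. Over all genes tested, 17.9% were called higher and 16.0% lower. The T cell sums, counts and median include *Cd3d* and *Cd8a*, which met the rule and whose direction it therefore fixed. *Prf1*, perforin, had 157 ± 35.5 against 623 ± 82.9. Among 22 other *Trbv* segments of the series 3 were tested, and all 3 were called higher.

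Genes of striated muscle were the largest class, with 26 of the 69. Muscle fibers hold ordered filaments anchored at Z-discs and linked at M-bands, and they express many genes found in few other cells. *Tnni2*, the troponin I of fast fibers, had 214, 256, 483 and 186 in sgScramble and 2691, 1777 and 2830.2 in sgKRT19. *Myom1*, which links thick filaments at the M-band, had 23.2, 27.7, 84.02 and 43.6 against 533, 387 and 425. *Ldb3*, a Z-disc protein, had 15.8, 20.7, 39.3 and 23.2 against 385, 322 and 382. *Fhl1*, a LIM-domain protein abundant in muscle but not limited to it, had 274, 257, 437 and 205 against 2043, 1769 and 2122. In each of these 4 sgScramble 3 was the highest control and sgKRT19 6 the lowest of its group.

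Enzyme genes of muscle were among them. *Pgam2*, the phosphoglycerate mutase of muscle, had 25.1, 29.6, 43.8 and 34.3 in sgScramble and 430.0, 238 and 383 in sgKRT19. *Apobec2*, a muscle member of the cytidine deaminase family, had 10.2, 8.89, 15.5 and 12.98 against 296, 99.02 and 225. *Smyd1*, a methyltransferase needed for sarcomere assembly, had 11.1, 8.89, 16.4 and 12.98 against 141, 152 and 143, the narrowest spread of the 3 in sgKRT19. *Myoz1*, a Z-disc binder of calcineurin, had 2.79, 0.988, 6.39 and 4.64 against 215, 112 and 217, and *Sypl2*, a membrane protein of the triad, had 0, 0, 5.48 and 2.78 against 86.7, 85.01 and 54.6.

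Some muscle genes had few reads in the controls. *Ckmt2*, the creatine kinase of muscle mitochondria, had 0, 2.96, 0.913 and 0 in sgScramble, which was 4 reads in all, and 109, 60.01 and 72.5 in sgKRT19. *Fitm1*, a lipid-droplet protein of muscle, had 0, 0.988, 0.913 and 0.927, which was 3 reads in all, against 47.4, 27.00 and 43.1. *Abra*, an actin-binding activator of muscle, had 1.86, 2.96, 3.65 and 0.927 against 62.4, 52.01 and 119.7. *Actc1*, the cardiac actin that fetal skeletal muscle also expresses, had 0, 6.92, 6.39 and 0 against 40.5, 34.01 and 33.6. For *Ckmt2* and *Fitm1* no library of the controls was above 3 reads, and no fold is given.

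The other muscle genes on the list are *Txlnb*, *Rpl3l*, *Dusp27* and *Ppp1r27*, with sgKRT19 means of 34.0 to 92.1. The rest of the class, not on that list, are *Hrc*, *Myom3*, *Alpk3*, *Lrrc2*, *Sgca*, *Mlip*, *Ip6k3*, *Myoz3* and *Fabp3-ps1*, of which *Hrc*, a calcium-binding protein of the sarcoplasmic reticulum, had the highest mean at 173 ± 40.3. *Fabp3-ps1* has 55.4% of its 76-base words in *Fabp3*, the fatty acid-binding protein of heart and muscle. Over the 26 genes, sgScramble 3 was the highest control in 21, sgKRT19 5 the highest sgKRT19 library in 17 and sgKRT19 6 the lowest in 20.

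The muscle list without the gained genes had the same order, with sums of 72755, 54201 and 68779 in sgKRT19 5, 6 and 8 and of 8085 to 14012 in sgScramble, highest in library 3. Of its 89 genes tested, 79 were called higher (88.8%) and 1 lower, against 17.9% and 16.0% of all genes tested. Their median log2 difference was 4.61, and the median over the 26 gained muscle genes was 3.41. The list without the gained genes holds 57 genes that the limit on sgScramble 3 alone left out. The rule thus parted the list by sgScramble 3, so an sgScramble sum highest in library 3 is partly built in. The contrast of medians likewise describes how the genes were chosen and carries no test. In *Acta1*, skeletal actin, library 3 held most of the sgScramble value, with 21.4, 21.7, 934 and 26.9 in sgScramble and 11010.0, 7875 and 10381 in sgKRT19. *Acta1* thus exceeded the limit on sgScramble 3 and was not taken. How far the muscle in each sample set the values of the other classes was not tested.

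**Figure D3:**
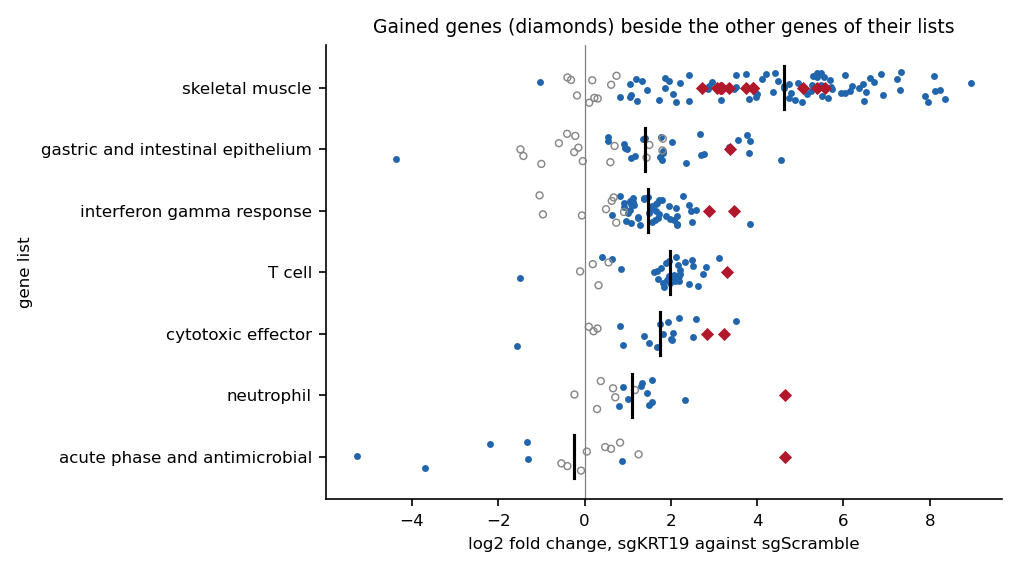
Fitted log2 difference (sgKRT19 against sgScramble, on log2(value + 1)) of each tested gene in 7 gene lists. Red diamonds are gained genes, filled blue circles other genes with an adjusted p under 0.05 (limma), open circles other genes, and black bars medians without the gained genes; the gained muscle genes lie within the range of their list, whereas *Ltf*, the diamond in the neutrophil and acute-phase rows, lies above every other gene there.

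The remaining 14 genes share no function that was looked for. *Atp6v0d2*, a subunit of the proton pump known from osteoclasts and macrophages, had 185, 168, 232 and 208 in sgScramble and 794, 1186 and 2796 in sgKRT19, with the highest sgKRT19 value 3.52 times the lowest. *Shisa2*, which holds Wnt and FGF receptors back in the endoplasmic reticulum, had 193, 135, 281 and 157 against 1251, 1417 and 1694. *2210407C18Rik*, known only by a clone name, had 39.9, 41.5, 81.3 and 76.98 against 635, 489 and 663. *Shisa2* was more even, with a highest sgKRT19 value 1.35 times the lowest.

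*Cbln1*, a secreted organizer of synapses, had 31.6, 42.5, 43.8 and 25.97 in sgScramble and 495, 424 and 219 in sgKRT19, and the noncoding RNA *Gm2694* that spans it on the opposite strand had 18.6, 6.92, 15.5 and 11.1 against 156, 136 and 72.5. Both were highest in sgKRT19 5 and lowest in 8. Their exons did not overlap in the annotation used here for positions, and whether the counting used strand is not stated. *Sh3gl2*, an endophilin of synaptic vesicle recycling named after its values were seen, had 8.36, 9.88, 8.22 and 8.35 against 169, 326 and 139.7, the lowest sgKRT19 value being 14.1 times the highest control. *Cnnm1* and *Lmx1a* had no control above 3 reads, and their sgKRT19 means were 33.2 ± 5.43 and 29.7 ± 8.20. The others are *Rasef*, *Rpp25*, *Tmem236*, *Clip4*, *Gm156* and *Gm15533*, with sgKRT19 means of 26.9 to 514. *Gm15533* lies opposite the muscle gene *Trim72*, with 18.7% of its exon bases overlapping, and *Trim72* had 7.43, 9.88, 22.8 and 4.64 against 187, 137 and 107.

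Position was another feature that the rule did not use. The 69 genes lie on 19 chromosomes or scaffolds, with the most, 8, on each of chromosomes 7 and 13. Within 500 kb of each other lay 13 pairs made of 20 genes, of which 5 pairs are proliferins. Other pairs join classes: *Smyd1*, of muscle, lies 0.555 kb from *Cd8b1*, of T cells, on chromosome 6, and *Lrrc2*, of muscle, lies 35.2 kb from *Ltf* on chromosome 9. Neighbors need not share a library order: *Smyd1* was highest in sgScramble 3 among the controls and *Cd8b1* in sgScramble 1. *Phf11d* lies 260 kb from *Shisa2*, *Nlrp6* 86.5 kb from *Ifitm6*, *Slurp1* 252 kb from *Ly6i* and *Lypd8* 217 kb from *2210407C18Rik*.

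Around the gained genes, 1183 other tested genes lay within 500 kb. Of these 298 (25.2%) were called higher and 140 (11.8%) lower, against 17.9% and 16.0% of all genes tested, with a median log2 difference of 0.09. Some loci were richer than others. Near *Phf11d* 9 of 10 were higher, near *Ly6i* 9 of 14, near *Ifi208* 12 of 17 and near *Trbv3* 8 of 9, and these neighbors include relatives of the gained genes. Around *Gm156*, on chromosome 6, 16 of 22 were higher. Near *Hrc*, in contrast, 19 of 82 were higher and 10 lower. Between *Prl2c3* and *Prl2c5* no other gene was tested, and 2 tested genes between *Prl2c5* and *Gm7040* had a median log2 difference of −0.38.

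**Figure D4:**
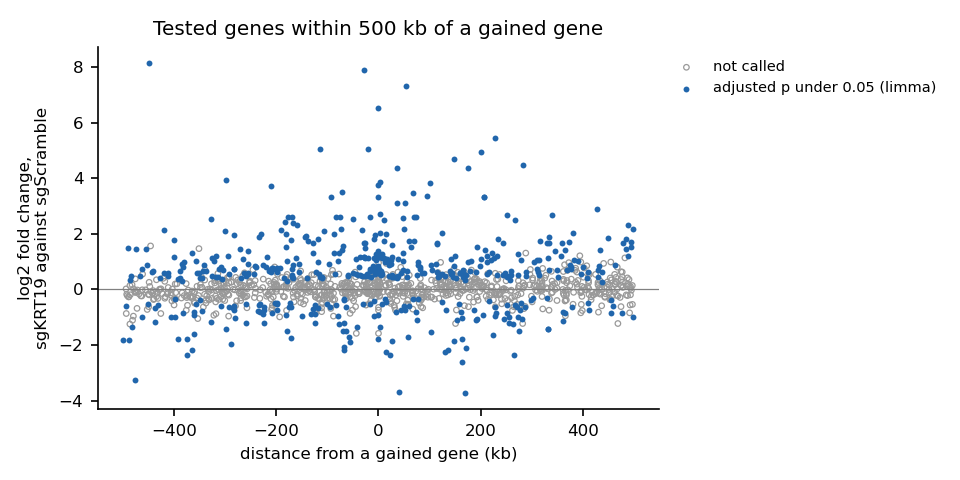
Fitted log2 difference (sgKRT19 against sgScramble) of the tested genes within 500 kb of a gained gene, against their distance from it in kb, with filled blue circles for an adjusted p under 0.05 (limma) and open circles for the rest. Most of the 1183 genes lie near 0 at all distances, and 298 were called higher and 140 lower.

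The spread of the gained genes among the sgKRT19 libraries also describes how they were chosen. In 25 of the 70 rows (35.7%), with *Apobec2* counted under both identifiers, the highest sgKRT19 value was at least 2 times the lowest. Of the 18062 tested genes at 20 or more in all 3 libraries, 982 (5.44%) were so. The median ratio was 1.81 against 1.30. The 2 sets were not matched on level. The rule used these sgKRT19 values, and a single high library raises the mean that it compares. The contrast therefore carries no test. Each value was also divided by the mean of its gene over the 3 libraries. The median of this ratio over the genes of a class was 1.06, 1.28 and 0.665 in sgKRT19 5, 6 and 8 for proliferins, and 1.17, 1.21 and 0.667 for T cell and cytotoxic genes. It was 0.775, 1.01 and 1.19 for epithelial genes and 0.734, 0.918 and 1.37 for interferon-inducible genes. For muscle genes it was 1.17, 0.745 and 1.03. These are medians, from which single genes depart: *Trbv3* was lowest in sgKRT19 6, and *Slurp1*, *Ly6i* and *Ifitm6* were highest in sgKRT19 5. Values of *Prl2c2*, *Prl2c3* and *Gm7040* may be shared among them, and the difference between classes was not tested.

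**Figure D5:**
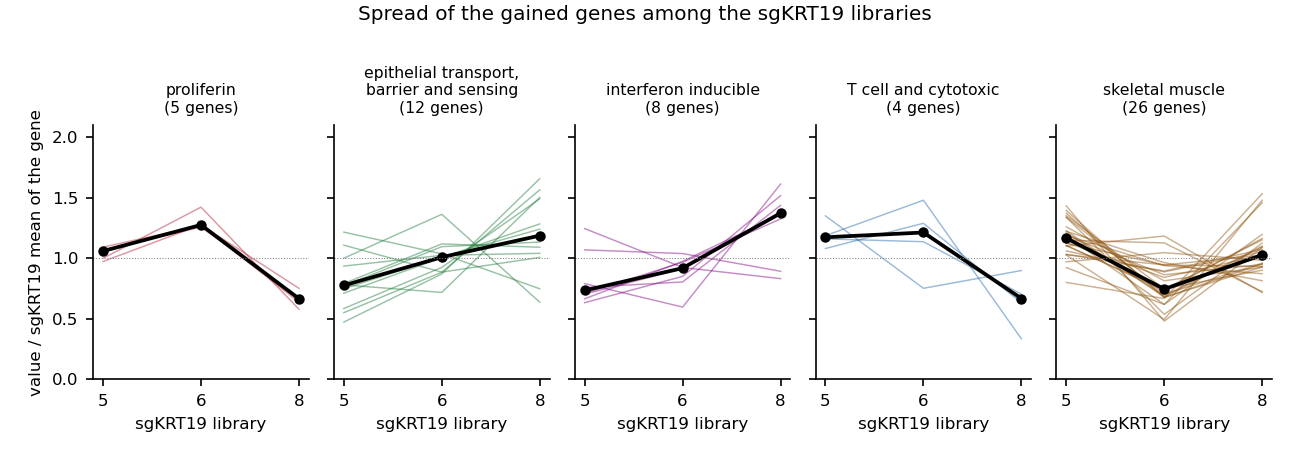
Value of each gained gene in sgKRT19 5, 6 and 8 divided by its mean over the 3 libraries, in 5 classes; thin lines join the values of 1 gene, black points are class medians, and the libraries have no order. The class medians of proliferins and T cell genes are lowest in library 8, those of epithelial and interferon-inducible genes are highest there, and that of muscle genes is lowest in library 6.

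The number of genes gained depends most on sgScramble 3. Without that library and the limit that refers to it, 205 rows met the remaining conditions, with 67 of the 70 among them, and with the library but without the limit 183 did. At a limit of 1 times the highest other control, 30 rows remained. P-values behind the calls measure only the spread between these tumors, since the labels do not say whether each came from a separate animal.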

How the data were processed

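Libraries of 7 subcutaneous tumors, 4 of sgScramble and 3 of sgKRT19 cells, were sequenced as single reads of 76 bp. The study names a stranded total RNA kit, whereas the labels name polyA RNA. The authors deposited 1 table of 38026 genes whose values are a signal, reads per gene divided by 1 size factor per library. The submitters' processing notes name mm10, and the aligner, counting program and annotation are not given in the sources used here. Whole reads were recovered for 100% of values (tolerance 0.05 reads), 40781199 to 44972100 per library, so intervals and floors cover counting error only. Replicates differed by more than counting error (chi-square 17.2 to 74.2 per degree of freedom).

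Genes at 10 or more in at least 3 libraries were fitted with limma 3.58.1 (R 4.3.3) on log2(value + 1) with a trended eBayes, group as the only term, and Benjamini-Hochberg adjusted p under 0.05 as the call. The fit was tested on simulated data in which every gene had the same spread beyond counting error, not matched to these libraries. Alternatives were edgeR 4.0.16 and DESeq2 1.42.0 on recovered reads, other scalings, filters, pseudocounts and thresholds, and leaving out each library. Positions are from GENCODE M21, which shares 37167 (97.74%) of the gene identifiers, and promoters from RefSeq (GRCm38.p6). Identical 76-base words of transcripts measured sequence sharing.

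The members, the lists and the tests were chosen with earlier results of these data known. Genes named are those in a list, the 15 highest in sgKRT19, the 10 with the lowest ratio of means, those within 500 kb of each other and 3 on either side of each threshold; further members are named to account for all. Columns left unused numbered 0. The other engineered alleles of the line are not reported here.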

Additional observations from a re-analysis of the deposited data

Results flagged for a closer look

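In 7 of the 69 gained genes (10.1%) 1 of the 4 sgScramble libraries stood apart from the others, its gap to the nearest divided by the range of the group being above the 95% critical value of the Dixon test. Chance gives about 1 in 20 among genes not chosen on their values; these were chosen on the same sgScramble values, so the share is a description only. Library 1 was the high one in *Cysrt1* (0.8457), *Ifit1bl1* (0.8409) and *Ifitm6* (0.8852), library 2 in *Sh3gl2* (0.9158) and library 3 in the muscle gene *Txlnb* (0.8395). Library 2 was the low one in *Lmx1a* (0.9741) and library 1 in *Fitm1* (0.9243), and in both of these all 4 values were at or under 3 reads, so the gap is 1 or 2 reads.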

How the results depend on the processing

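Member counts moved most with the rule: 38 rows at a limit of 10%, 129 at 20%, 183 with no limit on sgScramble 3 and 30 at 1 times the highest other, against 70. Leaving out 1 library gave 65 to 205 rows, with 205 without sgScramble 3. Membership changed more than these counts show. Without sgScramble 1, 71 rows met the rule, but only 57 of the 70 were among them. Without sgScramble 2, 66 rows did, with 60 of the 70. Leaving out any other library kept 62 to 68 of the 70, and scaling by library size only kept 58. Over the table, scaling by library size only gave 2187 genes higher and 5705 lower, and shifted the median of all genes by −0.21 (log2). Leaving out 1 library gave 2257 to 3637 genes lower, the fewest without sgScramble 2. The median log2 difference of the members, whose direction the rule fixes, was between 2.97 (pseudocount 5) and 3.45 (without sgScramble 3), and at pseudocount 5 the values of 20 of the 69 genes were lower by more than their replicate spread. In the interferon gamma list, members left out, 2 genes were lower with library size only, 1 with edgeR and 2 with DESeq2, against 0, and leaving out 1 library gave 0 to 2, with 2 without sgScramble 3. The neutrophil list gave 5 to 11 higher when 1 library was left out (5 without sgScramble 2 or sgKRT19 6, 6 without sgKRT19 5 or 8), the muscle list 1 to 2 lower (2 without sgKRT19 5) and the acute-phase list 1 to 2 higher (2 without sgScramble 1, sgKRT19 6 or sgKRT19 8, and 2 with no filter). Causes were not tested. No paired analysis was possible because the groups share no replicate number. At this depth, values at or under 3 reads are not told from 0.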
